A study of Homo sapiens with 20 samples.

Results

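Mitosis and spindle genes are described here: 48 named genes of the late cell cycle, out of 57820 genes counted in RNA-seq of T47D cells. T47D is an established breast cancer line of luminal type, and it carries progesterone receptors. The members were taken from a list of symbols and were not chosen by their values in any contrast. Earlier results of these data were known when they were chosen. Each symbol matched 1 Ensembl gene, and all 48 were among the 18806 genes that passed the filter on low counts and were tested. Before sampling, cells had been held without steroid hormones and then without serum, per the labels, although the first si-CBX3 0 h sample carries no protocol. The siRNA groups were si-BRG1 (BRG1, gene SMARCA4, drives nucleosome remodelling by SWI/SNF complexes), si-CBX3 (HP1 gamma, a heterochromatin protein), si-FOXA1 (a pioneer transcription factor) and si-control. Each was sequenced at 6 h of 10 nM R5020, a synthetic progestin, and at 0 h, with 2 libraries in each of the 8 groups. Cells without siRNA gave 1 further library at 6 h and 1 at 0 h, and 1 list of BRG1 ChIP-seq peaks each at 30 min and at 0 h.

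Entry into mitosis is driven by CDK1 bound to cyclin B, which is activated by CDC25 phosphatases and assisted by the Polo-like and Aurora kinases. Kinetochores then attach chromosomes to the spindle, the spindle assembly checkpoint restrains CDC20 and the anaphase-promoting complex until all are attached, and separase finally frees the sister chromatids. Most of these genes are transcribed in G2 and M phase by the B-MYB and FOXM1 transcription factors and are repressed in resting cells by the DREAM complex, so their transcripts are widely used as a measure of how many cells are dividing. In bulk RNA, fewer cells in G2 or M phase and less of the RNA per cell cannot be told apart.

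The libraries held 50017255 to 74374857 fragments, and each siRNA target lay lower in every library of its own siRNA than in any other library. CBX3 was at 2.94 to 6.94 CPM (counts scaled to library size) in si-CBX3 libraries and at 230.2 or more elsewhere, SMARCA4 at 2.13 to 5.93 in si-BRG1 against 55.8 or more, and FOXA1 at 49.0 to 68.7 in si-FOXA1 against 148.8 or more. All 11 luminal markers exceeded 1 CPM in at least 1 library, with a summed level of 8192 to 14412 CPM. The summed levels were 45.0 to 76.1 CPM for 9 mesenchymal markers, 0.722 to 2.27 for 7 leukocyte markers and 0.0342 to 1.08 for 4 endothelial markers. The file headers record separate counting commands for the si-CBX3 and si-FOXA1 libraries and for the si-BRG1 and si-control libraries. The difference read from them is the number of threads, 1 for si-CBX3 and si-FOXA1 and 8 for si-BRG1 and si-control. Whether replicate libraries stem from different cultures is not stated in the labels, and p-values therefore reflect the spread of these libraries, which may be technical. That spread is 1 estimate per gene shared by all 8 groups, although the groups varied unequally. Chi-square per degree of freedom between replicates was 64.1 in si-BRG1 at 6 h, 31.4 in si-control at 0 h and 24.8 in si-FOXA1 at 6 h. In the other groups it was 4.61 to 11.2.

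Promoter sequences of 4 members are printed because they carry letters through which many genes of G2 and M phase are known to be controlled. TTTGAA and TTCGAA are forms of the cell cycle genes homology region (CHR), the element bound by DREAM and B-MYB, and CCAAT is the box bound by NF-Y. Windows from 250 bases before to 50 bases after the gene start were taken from RefSeq (GRCh38.p14), where 41 of the 48 members matched. Of these 41, 31 held a CHR match on either strand (75.6%, against 16.6% of 27305 promoters), 31 held CCAAT (75.6%, against 35.7%) and 25 held both (61.0%, against 6.58%). KIF2C, CENPE, CDC25C and CDC25B held neither. Matches of different motifs overlapped in 2 places among the members. Capitals mark the matches, and TTCAAA and ATTGG are the same motifs on the other strand. The windows are CDC20 (chr1:43358731-43359030, plus strand), CDK1 (chr10:60778081-60778380, plus), PLK1 (chr16:23678639-23678938, plus) and TOP2A (chr17:40417847-40418146, minus), each written 5′ to 3′ along its gene.
CDC20: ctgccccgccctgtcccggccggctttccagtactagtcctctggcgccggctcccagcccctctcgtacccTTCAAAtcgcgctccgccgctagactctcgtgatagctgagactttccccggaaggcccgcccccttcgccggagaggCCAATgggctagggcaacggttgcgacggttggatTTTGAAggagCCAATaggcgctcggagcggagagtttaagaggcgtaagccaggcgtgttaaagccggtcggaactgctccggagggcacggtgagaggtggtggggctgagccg
CDK1: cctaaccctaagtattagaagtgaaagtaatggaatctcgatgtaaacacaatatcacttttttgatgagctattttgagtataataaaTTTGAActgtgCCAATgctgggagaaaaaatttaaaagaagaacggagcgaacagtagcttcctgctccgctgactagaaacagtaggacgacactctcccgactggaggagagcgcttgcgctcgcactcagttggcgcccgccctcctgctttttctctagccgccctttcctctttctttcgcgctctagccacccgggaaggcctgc
PLK1: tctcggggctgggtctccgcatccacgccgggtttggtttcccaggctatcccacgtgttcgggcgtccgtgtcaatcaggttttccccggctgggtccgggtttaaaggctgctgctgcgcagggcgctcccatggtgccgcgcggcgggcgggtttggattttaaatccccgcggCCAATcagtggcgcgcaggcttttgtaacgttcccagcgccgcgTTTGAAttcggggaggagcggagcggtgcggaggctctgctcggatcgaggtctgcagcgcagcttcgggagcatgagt
TOP2A: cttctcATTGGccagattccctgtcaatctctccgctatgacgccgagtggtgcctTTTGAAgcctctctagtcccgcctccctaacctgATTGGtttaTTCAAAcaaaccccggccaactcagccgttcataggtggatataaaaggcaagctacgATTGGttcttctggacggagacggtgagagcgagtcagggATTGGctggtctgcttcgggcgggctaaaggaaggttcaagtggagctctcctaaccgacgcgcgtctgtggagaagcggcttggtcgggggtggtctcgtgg
In PLK1 the CHR letters began 29 bases before the gene start, with CCAAT at 73 bases before it. In CDC20 the nearer CHR match lay at 65 bases and the CCAAT boxes at 100 and 55 bases before the start. CDK1 had its matches farther out, at 161 and 150 bases before the start of this window's transcript. The CHR matches of TOP2A were also far out, at 194 and 151 bases before the start. Its CCAAT boxes lay at 244, 160, 93 and 53 bases before it. These matches describe letters in the windows and were not tested for binding.

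Levels of the members differed widely when set per length of gene. In si-control at 0 h the highest was CKS2, the small CDK-binding subunit, at 107 ± 12.4 RPKM (SD, n = 2), which is above 97.9% of all genes tested. The RhoA exchange factor ECT2 followed at 64.4 ± 6.79 RPKM, then cyclin B1 (CCNB1) at 47.0 ± 0.585, the checkpoint protein BUB3 at 38.5 ± 3.45 and CDK1 at 28.1 ± 3.34. Each of these genes lay above the next by more than the SD of either. The lowest members were the proliferation antigen MKI67 at 1.63 ± 0.00297 RPKM, the kinesin KIF14 at 1.41 ± 0.0711 and the kinetochore kinesin CENPE at 0.344 ± 0.0919, which is above 27.8% of genes tested. Summed over the 48 members, the level was 3494 to 3846 CPM in the 4 si-BRG1 libraries, 935 to 1229 in si-CBX3, 2139 to 2778 in si-FOXA1 and 2061 to 2669 in si-control. The si-BRG1 and si-CBX3 sums lay apart from each other and from both other siRNAs, while those of si-FOXA1 and si-control overlapped.

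The genes described most often lie on several chromosomes (hg19, by the annotation used for counting). CDK1 (ENSG00000170312.11) spans chr10:62538089-62554610 on the plus strand, CCNB1 (ENSG00000134057.10) chr5:68462837-68474072, CDC20 (ENSG00000117399.9) chr1:43824626-43828874 and PLK1 (ENSG00000166851.10) chr16:23688977-23701688, all on the plus strand. ECT2 (ENSG00000114346.9) spans chr3:172468472-172539264 and CENPF (ENSG00000117724.8) chr1:214776538-214837931, both on the plus strand. On the minus strand lie CENPE (ENSG00000138778.7) at chr4:104026963-104119566, MKI67 (ENSG00000148773.8) at chr10:129894923-129924649 and TOP2A (ENSG00000131747.10) at chr17:38544768-38574202.

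**Figure D1:**
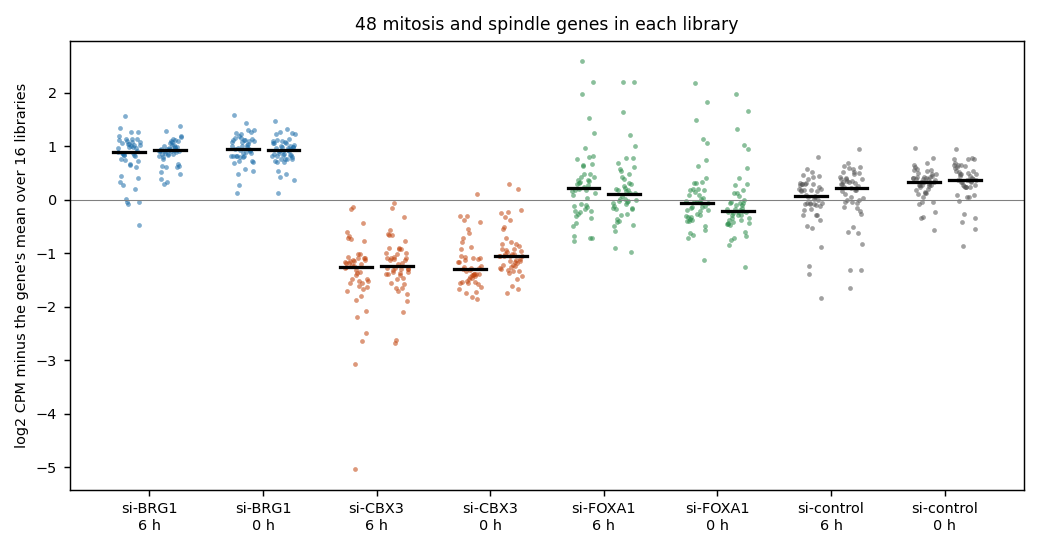
Each point is 1 of 48 members in 1 library, as log2 CPM minus the mean of that gene over 16 libraries (y axis), with the libraries in pairs by siRNA and time (x axis) and bars at the median. The medians of the 4 si-BRG1 libraries lie at 0.89 to 0.96, those of the 4 si-CBX3 libraries at -1.30 to -1.05, and the si-FOXA1 and si-control libraries lie between them.

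Before hormone, nearly the whole group was higher with si-BRG1 than with si-control. Of the 48 members, 44 were higher in si-BRG1 than in si-control and 1 was lower, where 28.5% of all 18806 genes were called in either direction (15.1% higher and 13.4% lower). A call is an adjusted p below 0.05 in edgeR's quasi-likelihood test with Benjamini-Hochberg adjustment. The median log2 fold change was 0.59 for the members and 0.03 for all genes, so most rises were moderate. With at least a 1.5-fold change also required, 24 members were called.

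The rise ran through every role. Of 8 genes for CDK1, its cyclins and activators, 6 were higher. Their transcription factor FOXM1 stood at 47.3 and 48.0 CPM in si-BRG1 against 27.8 and 26.1 in si-control, an increase of 0.82 on the log2 scale (SE 0.10, adjusted p = 1.17e-05). The si-BRG1 pair lay well above the si-control pair. CDK1 itself missed the threshold, with 134 and 133 CPM in si-BRG1 against 101 and 119 in si-control (0.28, SE 0.11, adjusted p = 0.0618). AURKA, the kinase of spindle poles, was at 70.4 and 69.9 CPM in si-BRG1 and at 53.7 and 51.5 in si-control (0.42, SE 0.08). All 6 kinetochore members, all 6 kinesins, all 6 spindle and midzone proteins, all 4 passenger complex genes and all 5 chromosome structure genes were higher. The spindle assembly factor TPX2 was at 139.9 and 127 CPM in si-BRG1 and at 86.0 and 77.4 in si-control (0.71, SE 0.09). BUB3, which binds kinetochores with BUB1 and BUBR1, was the single member that fell, with 104 and 105 CPM in si-BRG1 against 116 and 131 in si-control. That difference was small (-0.24, SE 0.07, adjusted p = 0.0198), and without si-BRG1 replicate 1, si-BRG1 replicate 2 or si-control replicate 2 it was no longer called.

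The largest rises were in CENPE, MKI67 and CENPF. CENPE was at 11.3 and 9.48 CPM in si-BRG1 against 3.86 and 2.63 in si-control (1.67, SE 0.31, adjusted p = 0.000776). CENPF was at 146 and 140.2 CPM in si-BRG1 against 68.0 and 54.7 in si-control (1.22, SE 0.23). In both, each si-BRG1 library was above each si-control library by more than the spread within a pair. MKI67 was at 49.9 and 60.6 CPM in si-BRG1 and at 20.8 and 20.9 in si-control (1.404, SE 0.36), and it was not called without replicate 2 of either siRNA. TOP2A was at 316 and 285 CPM in si-BRG1 against 181 and 175 in si-control (0.76, SE 0.10). BUB1B was at 48.7 and 45.3 CPM in si-BRG1 against 29.7 and 27.2 in si-control (0.73, SE 0.10). These pairs did not overlap either.

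At 6 h of R5020 the difference was of the same kind. In si-BRG1 45 members were higher than in si-control and 3 were not called, against 37.3% of all genes called in either direction (19.6% higher and 17.8% lower). The median was 0.75, against 0.04 for all genes. MKI67 (2.30), CENPE (1.92) and CENPF (1.89) were the largest rises, with the si-BRG1 libraries far apart. MKI67 was at 22.1 and 80.1 CPM in si-BRG1 against 8.54 and 12.4 in si-control, CENPF at 62.3 and 129 against 25.2 and 26.5 in si-control, and CENPE at 4.69 and 8.69 against 2.04 and 1.54 in si-control. Without si-BRG1 replicate 2 the log2 fold changes were 1.08 for MKI67, 1.27 for CENPF and 1.39 for CENPE, and without replicate 1 they were 2.94, 2.32 and 2.28, each still called. The 3 members not called were BUB3 (-0.06), the CDC25B phosphatase (0.20) and the checkpoint target CDC20 (0.19). CCNB1 stood at 163 and 143 CPM in si-BRG1 at 6 h against 93.6 and 98.9 in si-control (0.67, SE 0.07). Across both times, 42 of the 48 were called higher in si-BRG1. The share of all genes higher at both times was not computed, and it cannot exceed the 15.1% higher before hormone.

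In si-CBX3 libraries most of the group was lower than in si-control, which was counted with another command. Before hormone 43 members were lower in si-CBX3 than in si-control and 5 were not called, where 54.1% of all genes were called (28.1% higher and 26.0% lower). The median log2 fold change was -1.57, against 0.05 for all genes. At 6 h 46 were lower and 1 was higher (49.2% of all genes called, 24.7% higher and 24.4% lower), with a median of -1.47. Of the 48, 43 were lower at both times. The share of all genes lower at both times was not computed, and it cannot exceed the 24.4% lower at 6 h.

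The largest falls before hormone were in CDC20, BIRC5 and PTTG1. CDC20, the activator of the anaphase-promoting complex, was at 8.39 and 9.57 CPM in si-CBX3 against 42.5 and 43.9 in si-control before hormone, which is 4.81-fold lower (-2.27, SE 0.09, adjusted p = 4.65e-11). The securin gene PTTG1 was at 9.56 and 11.3 CPM in si-CBX3 against 49.1 and 48.5 in si-control (-2.23, SE 0.10). No si-CBX3 library came near a si-control library in either gene. BIRC5 (survivin, a passenger complex subunit) was at 13.6 CPM in both si-CBX3 libraries against 57.4 and 71.1 in si-control (-2.24, SE 0.10). PLK1, the Polo-like kinase, was at 12.3 and 15.4 CPM in si-CBX3 against 53.6 and 56.4 in si-control (-1.99, SE 0.10). CCNB1 was at 33.8 and 36.6 CPM in si-CBX3 against 119 and 121 in si-control (-1.77, SE 0.08). These groups did not overlap. The midzone kinesin KIF20A fell 4.30-fold (9.08 and 10.4 CPM in si-CBX3, 42.3 and 41.6 in si-control). All 8 genes of the CDK1 group, all 5 checkpoint genes, all 6 kinesins and all 6 spindle proteins were lower. FOXM1 changed less than most (14.1 and 16.7 CPM in si-CBX3, 27.8 and 26.1 in si-control; -0.81, SE 0.10).

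At 6 h the largest falls were in CENPE, CDC25C and ASPM. ASPM, which focuses microtubules at spindle poles, was at 6.19 and 9.02 CPM in si-CBX3 against 31.7 and 25.0 in si-control (-1.89, SE 0.20). CDC25C (-1.93) and the microtubule-depolymerising kinesin KIF2C (-1.86) fell by a similar amount. CENPE was at 0.146 and 0.752 CPM in si-CBX3 against 2.04 and 1.54 in si-control (-1.95, SE 0.55), and it was not called without replicate 1 of either siRNA. TOP2A was at 34.0 and 38.6 CPM in si-CBX3 against 109.9 and 119 in si-control (-1.66, SE 0.11). In each of these genes both si-CBX3 libraries lay below both si-control libraries.

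A few members were not lower in si-CBX3. INCENP, the scaffold of the passenger complex, was at 21.7 and 22.9 CPM in si-CBX3 and at 21.2 and 20.03 in si-control before hormone (0.11, SE 0.10, adjusted p = 0.387). At 6 h INCENP was higher, at 24.3 and 25.5 CPM in si-CBX3 against 19.1 and 17.6 in si-control (0.44, SE 0.11, adjusted p = 0.0024). Its partners AURKB (-1.44), BIRC5 (-2.24) and CDCA8 (borealin) were all lower in si-CBX3 before hormone. The other 4 members not called before hormone were CENPE (0.49), CENPF (-0.40), MKI67 (-0.46) and SMC4 (-0.02), and of these MKI67 was also not called at 6 h (-0.52, SE 0.41).

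**Figure D2:**
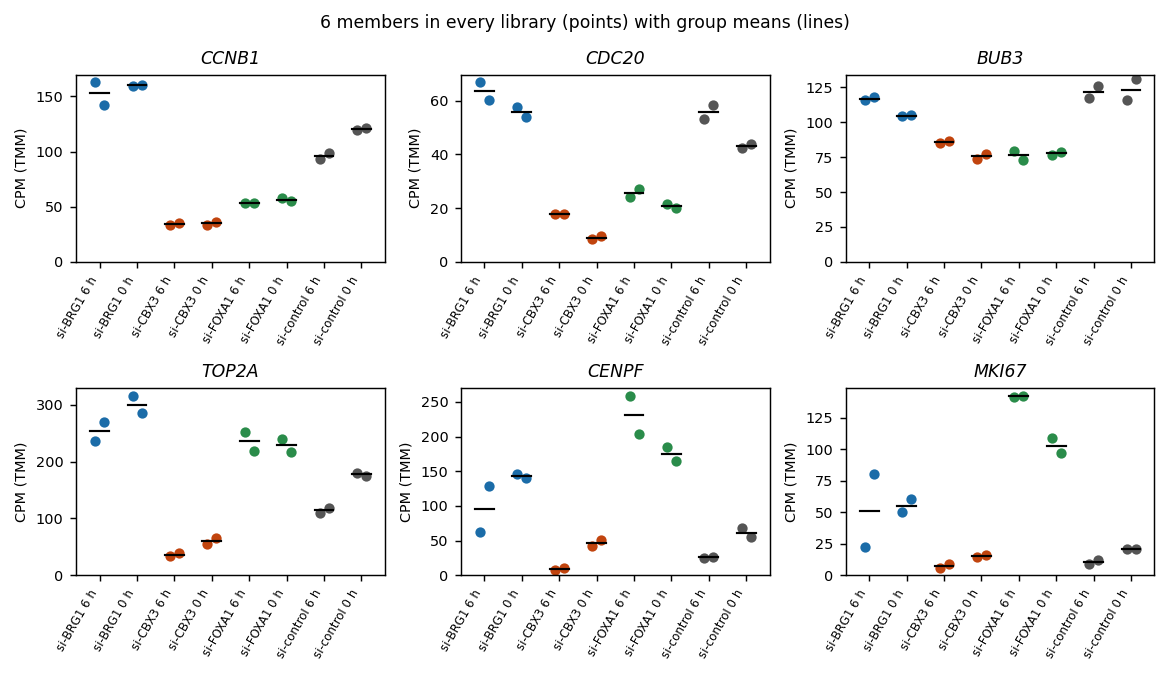
CPM scaled by TMM (y axes, from 0) of 6 members in each library (points), with group means as lines and the groups in the order si-BRG1, si-CBX3, si-FOXA1 and si-control, 6 h before 0 h. CCNB1 and CDC20 are lowest in the si-CBX3 libraries, while CENPF and MKI67 are highest in si-FOXA1, with MKI67 at 142 CPM in both si-FOXA1 libraries at 6 h.

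In si-FOXA1 libraries the group was split relative to si-control, which was counted with another command. Before hormone 31 members were lower and 9 were higher in si-FOXA1 than in si-control, where 73.5% of all genes were called (40.0% higher and 33.5% lower). The median was -0.46 for the members and 0.11 for all genes. At 6 h 19 were lower and 18 higher (74.6% of all genes called, 40.1% higher and 34.5% lower), with a median of 0.03, against 0.12 for all genes. These shares at 6 h were near those of all genes, so the counts at 6 h are no result about the members. With fold changes levelled for the exon length of genes, an alternative chosen after seeing the data, 26 were higher and 11 lower at 6 h. The share of all genes under that alternative is not given here.

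The members that fell before hormone included 7 of 8 in the CDK1 group, both kinases PLK1 and AURKA, all 5 checkpoint genes, both cytokinesis genes and 3 of 4 anaphase genes. CCNB1 was at 57.5 and 55.2 CPM in si-FOXA1 against 119 and 121 in si-control before hormone (-1.09, SE 0.07, adjusted p = 1e-09). The phosphatase CDC25C (-1.73) and PTTG1 (-1.39) also fell. ECT2, which activates RhoA for the cleavage furrow, fell most, at 102 and 92.8 CPM in si-FOXA1 against 328 and 381 in si-control (-1.86, SE 0.09, adjusted p = 1.81e-11). AURKA was at 25.9 and 23.7 CPM in si-FOXA1 and at 53.7 and 51.5 in si-control (-1.08, SE 0.08). CDC20 (-1.05), PLK1 (-1.03) and BIRC5 (-1.19) fell to a like extent, and none of these groups overlapped. In all, 18 members were lower at both times, but with levelling for exon length 4 of them, CCNB2 (0.32), CKS2 (0.51), CDCA8 (0.026) and UBE2C (0.17), had values above 0 at 6 h. The share of all genes lower at both times in si-FOXA1 was not computed, so this count is no result about the members.

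The 9 members that were higher before hormone were also higher at 6 h: ASPM, CENPE, CENPF, ESPL1, INCENP, KIF14, MKI67, SMC4 and TOP2A. The shares of all genes higher at both times, or lower before hormone and higher at 6 h, were not computed. Counts of members with these patterns are therefore no result about the members. CENPE was at 29.0 and 22.1 CPM in si-FOXA1 at 6 h against 2.04 and 1.54 in si-control (3.83, SE 0.34). Before hormone it was at 21.8 and 18.96 CPM in si-FOXA1 against 3.86 and 2.63 in si-control (2.65, SE 0.31). MKI67 was at 109 and 97.0 CPM in si-FOXA1 against 20.8 and 20.9 in si-control before hormone (2.30, SE 0.37, adjusted p = 2.65e-05). In both genes the si-FOXA1 libraries stood far above those of si-control. TOP2A, the topoisomerase that untangles sister chromatids, was at 253 and 219 CPM in si-FOXA1 at 6 h against 109.9 and 119 in si-control (1.04, SE 0.10). Before hormone TOP2A was at 240.4 and 218 CPM in si-FOXA1 against 181 and 175 in si-control (0.37, SE 0.10), and this call was lost without si-control replicate 2. At 0 h ESPL1 was not called without si-control replicate 1, and KIF14 (0.34) not without si-FOXA1 replicate 1 or either si-control library. Another 5 members were lower before hormone and higher at 6 h: BUB1, BUB1B, DLGAP5, NUF2 and PRC1. These were less stable: at 0 h BUB1B and NUF2 were not called without si-FOXA1 replicate 2, and DLGAP5 not without either si-FOXA1 library or si-control replicate 1. At 6 h BUB1 was not called without si-control replicate 1, DLGAP5 and NUF2 not without si-FOXA1 replicate 1 or si-control replicate 1, and PRC1 not without either si-FOXA1 library or si-control replicate 1.

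The direct comparison of si-CBX3 with si-FOXA1, which lies within 1 counting command, gave 43 members lower and 1 higher before hormone (64.8% of all genes called, 30.6% higher and 34.2% lower; median -1.12, against -0.05). At 6 h it gave 45 lower and 2 higher (69.3% called, 33.7% higher and 35.5% lower; median -1.37). Most members were thus lower in si-CBX3 than in libraries counted with the same command. CENPE was at 0.146 and 0.752 CPM in si-CBX3 at 6 h, from 7 and 39 fragments, against 29.0 and 22.1 CPM in si-FOXA1 (-5.79, SE 0.42). ECT2 ran the other way, at 238 and 254 CPM in si-CBX3 against 102 and 92.8 in si-FOXA1 before hormone (1.34, SE 0.09, adjusted p = 1.39e-09). CDC25B was called at neither time (0.10 before hormone and 0.05 at 6 h). The command of si-control differed from that of si-CBX3 and si-FOXA1, in what was read here, by 8 threads against 1. A shift that goes with this split of libraries and a shift from those siRNAs cannot be told apart in their comparisons with si-control.

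**Figure D3:**
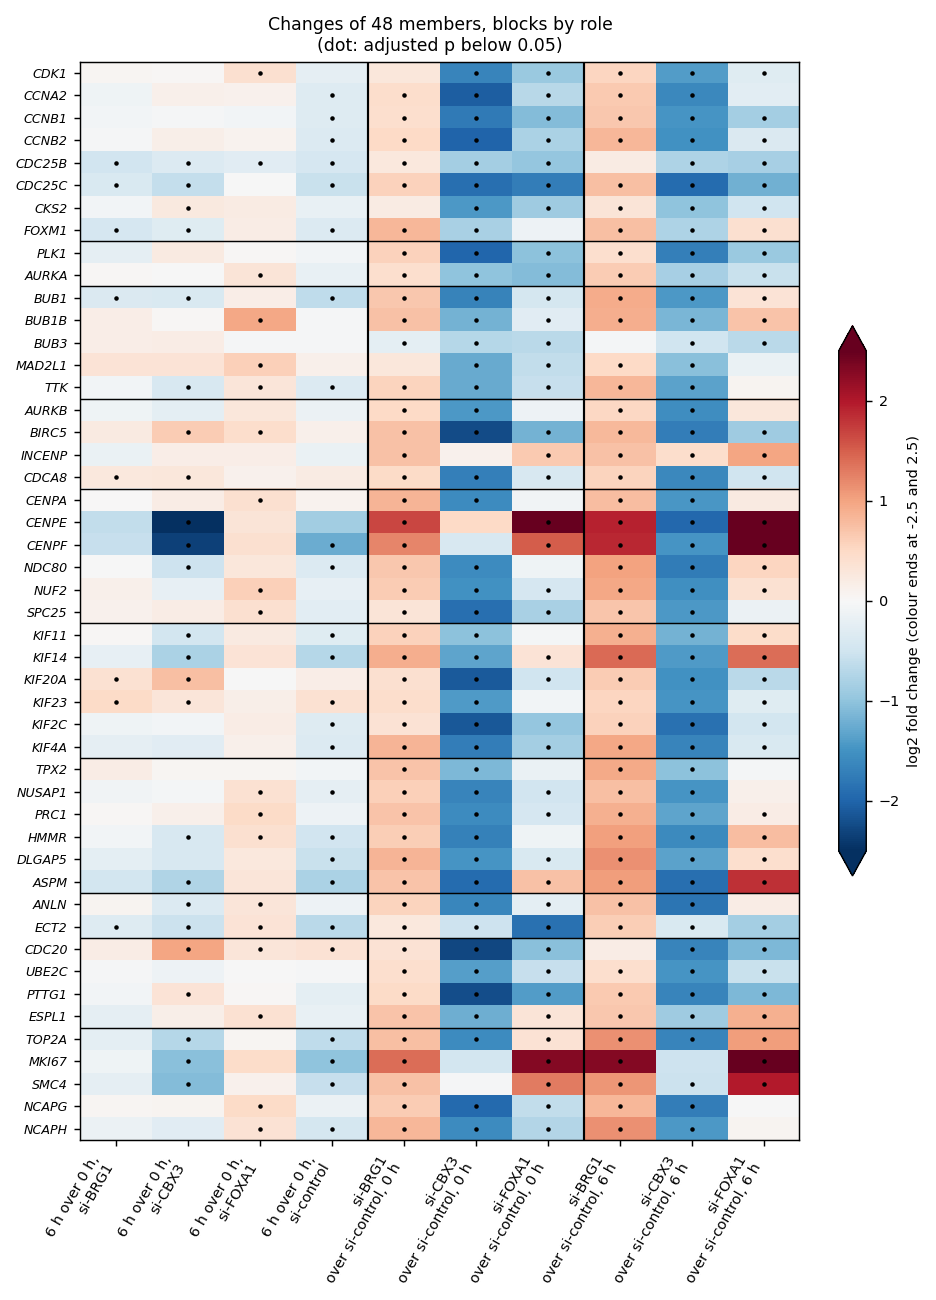
log2 fold changes of the 48 members (rows, in blocks by role) in 10 comparisons (columns): 6 h over 0 h under each siRNA, then each siRNA over si-control at 0 h and at 6 h. A dot marks an adjusted p below 0.05. In the columns over si-control, those of si-BRG1 are red for all but BUB3 and those of si-CBX3 are blue for most. In those of si-FOXA1, CENPE, CENPF, MKI67, SMC4 and the anaphase gene ESPL1 are red, while cyclins and the anaphase genes CDC20, UBE2C and PTTG1 are blue.

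In si-control cells many members were lower after R5020. After 6 h 23 were lower and 2 higher than at 0 h, where 37.6% of all genes were called (19.5% higher and 18.1% lower), and the median was -0.25 against -0.02 for all genes. Most changes were small: 7 passed with at least a 1.5-fold change also required. Without si-control 6 h replicate 1 the count of 25 became 14.

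The genes that fell included 6 of 8 in the CDK1 group, 4 of 6 spindle proteins, 4 of 6 kinesins and 4 of 5 chromosome structure genes. CENPF, a large kinetochore protein, was at 25.2 and 26.5 CPM at 6 h against 68.0 and 54.7 at 0 h (-1.25, SE 0.23, adjusted p = 0.000391). TOP2A was at 109.9 and 119 CPM at 6 h and at 181 and 175 at 0 h (-0.63, SE 0.10). ECT2 was at 222 CPM in both libraries at 6 h, against 328 and 381 at 0 h (-0.67, SE 0.09). In each of these the 6 h libraries lay below both 0 h libraries. The spindle pole protein ASPM (-0.78), KIF14 (-0.70), BUB1 (-0.63) and CCNB1 (-0.32) also fell, and MKI67 fell by 1.00 with an adjusted p of 0.0494 that rose as high as 0.262 when single libraries were left out. CDC20 and KIF23, a kinesin of the cytokinetic midzone, were the 2 that rose, CDC20 to 53.1 and 58.5 CPM at 6 h against 42.5 and 43.9 at 0 h (0.37, SE 0.09). KIF23 was at 61.1 and 64.7 CPM at 6 h and at 49.4 and 47.1 at 0 h (0.38, SE 0.08). ASPM and CDC20 were not called without si-control 6 h replicate 2. PLK1 (-0.07), TPX2 (-0.06) and BUB1B (-0.02) were not called.

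In si-BRG1 cells 8 members differed after hormone (3 higher and 5 lower; 35.7% of all genes were called, 18.6% higher and 17.1% lower), with a median of -0.07. KIF23 (0.48), KIF20A (0.39) and CDCA8 (0.27) rose, and CDC25B (-0.48), FOXM1 (-0.42), CDC25C (-0.37), BUB1 (-0.36) and ECT2 (-0.32) fell. CDCA8 was not called without either 0 h library or 6 h replicate 1, CDC25C not without either 0 h library or 6 h replicate 2, and BUB1 not without 0 h replicate 1. KIF23 was at 90.5 and 91.8 CPM at 6 h and at 67.3 and 63.2 at 0 h. The 2 si-BRG1 libraries at 6 h lay far apart in MKI67, which was at 22.1 and 80.1 CPM at 6 h against 49.9 and 60.6 at 0 h. CENPF was at 62.3 and 129 CPM at 6 h and at 146 and 140.2 at 0 h. Without si-BRG1 6 h replicate 2 the count of 8 became 18, and without si-BRG1 0 h replicate 1 it became 5. MKI67 was not called with both libraries (-0.11, SE 0.35), and without 6 h replicate 1 it was higher (0.53, adjusted p = 0.0209).

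In si-CBX3 cells 7 members rose and 17 fell with hormone (41.0% of all genes called, 20.4% higher and 20.5% lower; median -0.05). The 7 that rose were CDC20, KIF20A, BIRC5, PTTG1, KIF23, CDCA8 and CKS2. CDC20 was at 17.7 and 17.9 CPM at 6 h and at 8.39 and 9.57 at 0 h (0.99, SE 0.10, adjusted p = 2.56e-07), and KIF20A was at 15.9 and 17.1 CPM at 6 h and at 9.08 and 10.4 at 0 h (0.76, SE 0.09). In both genes even the 6 h libraries lay below every si-control library. CENPE was at 0.146 and 0.752 CPM at 6 h and at 3.29 and 5.87 at 0 h (-3.31, SE 0.47), and CENPF was at 7.84 and 10.6 CPM at 6 h and at 42.6 and 50.3 at 0 h (-2.33, SE 0.25). The condensin subunit SMC4 (-1.08), MKI67 (-1.05) and TOP2A (-0.72) also fell. PTTG1 (0.34) and KIF23 were not called without 0 h replicate 1 or 6 h replicate 2, CDCA8 not without those or 6 h replicate 1, CKS2 not without any single library, and MKI67 not without either 0 h library or 6 h replicate 1. The count of 24 became 15 without si-CBX3 0 h replicate 2 (7 higher and 8 lower) and 12 without 6 h replicate 1 (5 higher and 7 lower). It became 21 without 0 h replicate 1 (3 higher and 18 lower) and 18 without 6 h replicate 2 (3 higher and 15 lower), and CDC20, KIF20A and BIRC5 were called under each of these 4 omissions. With changes levelled for exon length it was 4 higher and 21 lower.

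In si-FOXA1 cells the direction was upward, with 18 members higher and 1 lower at 6 h (38.8% of all genes called, 19.1% higher and 19.6% lower; median 0.28, against -0.04). BUB1B, the checkpoint kinase-like protein BUBR1, rose most, at 46.9 and 44.4 CPM at 6 h against 24.8 and 21.8 at 0 h (0.97, SE 0.10, adjusted p = 6.74e-07). Its level at 6 h was 1.63-fold that of si-control at 6 h. The kinetochore gene NUF2 (0.60), BIRC5 (0.43) and CDK1 (0.39) rose too. CDK1 was at 84.4 and 68.0 CPM at 6 h and at 61.2 and 54.9 at 0 h, and it was not called without 0 h replicate 2 or 6 h replicate 1. CDC25B was the member that fell (-0.29, SE 0.08), and not without 0 h replicate 1 or 6 h replicate 1. The count of 19 became 7 without si-FOXA1 0 h replicate 2 and 7 without 6 h replicate 1, and 28, all higher, when only these 4 libraries were fitted.

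**Figure D4:**
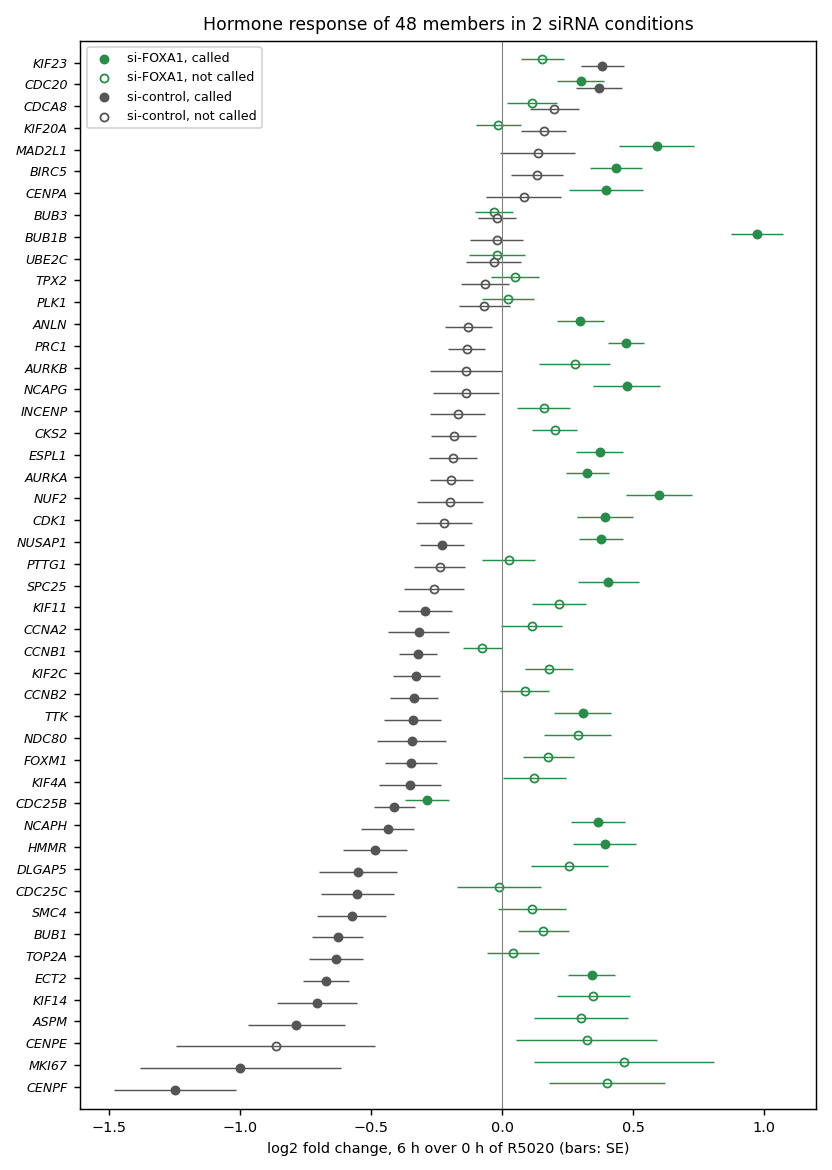
log2 fold change of each member at 6 h over 0 h of R5020 (x axis, bars are SE) in si-FOXA1 and in si-control cells, sorted by the si-control value. Filled points passed an adjusted p of 0.05; the si-control values extend down to -1.25 for CENPF, while 42 of 48 si-FOXA1 values are above 0.

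The difference between hormone responses was tested itself. In si-FOXA1 the response exceeded that of si-control in 29 members and fell short in none that passed (28.7% of all genes called, 13.0% higher and 15.7% lower), with a median difference of 0.52. CENPF (1.65, SE 0.32, adjusted p = 0.00107), MKI67 (1.46, SE 0.51), ASPM (1.09, SE 0.26), KIF14 (1.05), ECT2 (1.01, SE 0.13) and BUB1B (0.99, SE 0.14) are examples among the called members. CENPE differed by 1.19 and was not called. CDC20 (-0.07, SE 0.13) and KIF23 (-0.23, SE 0.12) did not pass. The count of 29 became 19 without si-FOXA1 0 h replicate 2 and 19 without 6 h replicate 1, and MKI67 was not called when any single library of these 4 groups was left out. Each response has its own libraries: 5 members fell in si-control and rose in si-FOXA1, namely ECT2, HMMR, NCAPH, NUSAP1 and TTK. The share of all genes that fell in si-control and rose in si-FOXA1 was not computed. Without si-FOXA1 0 h replicate 2 or 6 h replicate 1 the rise of ECT2, HMMR, NCAPH and TTK was no longer called, and that of TTK also not without 0 h replicate 1. The fall of NUSAP1 was not called without either si-control 0 h library or 6 h replicate 1, and that of TTK not without replicate 2 of either time.

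In si-CBX3 the response exceeded that of si-control in 6 members and fell short in 1, against 8.99% of all genes called (4.63% higher and 4.36% lower). The 6 were CDC20 (0.62, SE 0.13, adjusted p = 0.00617), KIF20A (0.60, SE 0.13), PTTG1 (0.58), BIRC5 (0.51), CCNB2 and CKS2, and the 1 was CENPE (-2.45, SE 0.64, adjusted p = 0.0235). The count of 7 became 3 without si-CBX3 0 h replicate 1, 3 without 6 h replicate 1, 3 without 6 h replicate 2, 3 without si-control 0 h replicate 2 and 2 without si-control 6 h replicate 1. CENPE was not called without si-CBX3 0 h replicate 2, si-CBX3 6 h replicate 1, si-control 0 h replicate 2 or either si-control 6 h library, while CDC20 and KIF20A were called under each of these omissions. PTTG1, BIRC5, CCNB2 and CKS2 each lost their call in at least 3 of the 8 omissions. In si-BRG1 edgeR called no member in this comparison, while 9 had an unadjusted p below 0.05, DESeq2 also called 0, and 5.22% of all genes were called (1.49% higher and 3.72% lower). The median difference there was 0.22. Without si-BRG1 6 h replicate 1 edgeR called 7 members, all higher, without 6 h replicate 2 it called 2, and without si-control 0 h replicate 1 it called 1.

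Members with long exons in all are given separately. The 6 members with at least 8 kb of exons are MKI67 (12807 bases), CENPF (11663), ASPM, CENPE (9444), ESPL1 and SMC4 (8457). This class was set after their values were seen, so it carries no test. Before hormone their median was 1.404 in si-FOXA1 against si-control, compared with -0.46 for all 48 members and 0.17 for 2159 genes of such length. In si-CBX3 against si-control it was -0.43, compared with -1.57 for the 48 and 0.05 for the 2159 genes. In si-BRG1 against si-control it was 0.98, compared with 0.59 and 0.10. For the hormone response of si-FOXA1 minus that of si-control, the median of the 6 long members was 1.14. The shorter length classes of members had medians of 0.39 to 0.52 there, and the 2159 genes 0.16. Across the members, the Spearman correlation of exon length with the log2 fold change before hormone was 0.56 in si-FOXA1, 0.42 in si-CBX3 and 0.49 in si-BRG1. Across 10982 genes it was 0.24, 0.14 and 0.23. At 6 h it was 0.59, 0.096 and 0.48 across the members, and 0.37, 0.17 and 0.38 across the genes. In si-CBX3 at 6 h the long members had a median of -1.18, near the -1.33 to -1.54 of the shorter classes. The points share libraries, and the 3 comparisons at each time share the si-control libraries of that time.

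**Figure D5:**
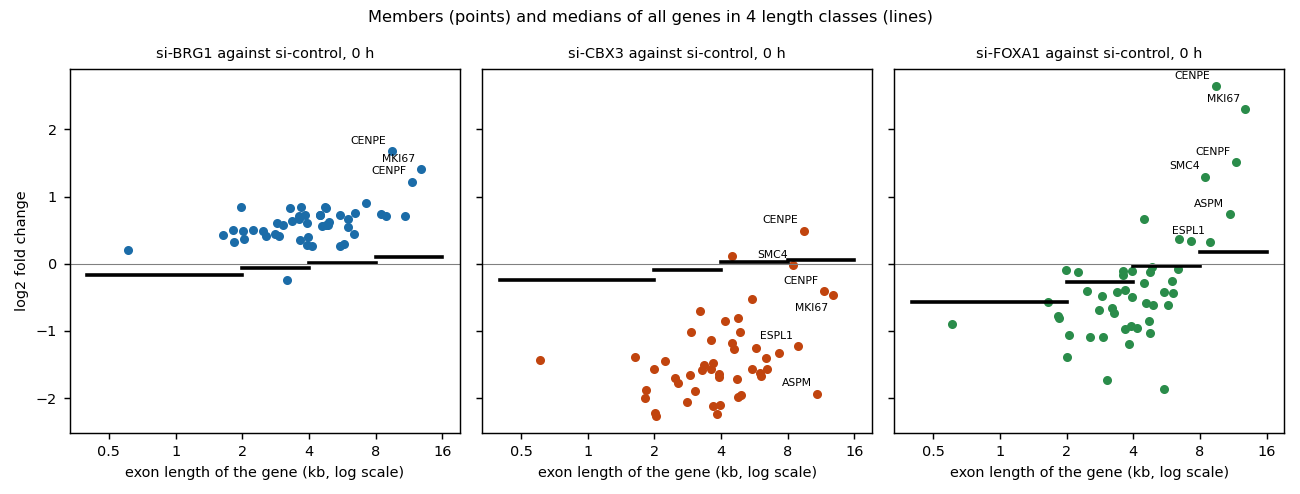
log2 fold change over si-control at 0 h (y axes) against exon length in kb (x axes, log scale) for the 48 members (points), with lines at the median of all genes in 4 length classes. In si-FOXA1 the points of CENPE (2.65), MKI67 (2.30), CENPF (1.51) and SMC4 (1.30) lie above 0 while most shorter members lie below it, and in si-CBX3 CENPE, SMC4, CENPF and MKI67 lie above most shorter members.

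The 6 long members also differed between replicates in some groups. In si-BRG1 at 6 h the 6 long members were lower in replicate 1 than in replicate 2, by a median log2 difference of -0.79, while the median over all members was -0.01 and that over all genes of this length was -0.14. In si-CBX3 at 6 h the long members differed by -0.49, all members by -0.10 and all genes of this length by -0.05. At 0 h the long members differed by -0.23 in si-CBX3, where all members differed by -0.21. In si-FOXA1 at 6 h the difference of the long members had the other sign, at 0.27, and it was 0.14 at 0 h. In si-control at 0 h and at 6 h the long members differed by 0.05 and 0.03. The part of RNA or library quality in these values was not tested.

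Other cell cycle genes were set beside the members. Of 132 further mitotic genes (kinetochore, condensin and cohesin, anaphase-promoting complex, DREAM, entry regulators and other spindle genes), 77 were higher and 5 lower in si-BRG1 before hormone, 15 higher and 95 lower in si-CBX3, and 40 higher and 56 lower in si-FOXA1. Of all genes tested, 15.1% were higher and 13.4% lower in si-BRG1, 28.1% and 26.0% in si-CBX3, and 40.0% and 33.5% in si-FOXA1. The medians of the 132 genes were 0.38, -0.49 and -0.07, nearer to 0 than those of the members in each case. The 18 genes of the anaphase-promoting complex and its partners moved least in si-BRG1, with 1 higher, 2 lower and a median of -0.06. The B-MYB gene MYBL2 was higher in si-BRG1 (0.97, SE 0.09) and lower in si-CBX3 (-1.24, SE 0.09). In si-FOXA1 it was not called (0.08, SE 0.09).

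Of 38 tested genes of DNA replication and the G1/S step, 33 were higher in si-BRG1, 33 were lower in si-CBX3, and in si-FOXA1 13 were higher and 14 lower. Under hormone, 22 of the 38 rose in si-control and 3 fell (19.5% of all genes rose and 18.1% fell), with a median of 0.31 against -0.25 for the members. Named after their values were seen, cyclin E2 (CCNE2) rose by 1.33 (SE 0.10) and the replication licensing factor CDC6 by 0.97 (SE 0.08). Under hormone in si-BRG1, 27 of the 38 rose and 1 fell (18.6% of all genes rose and 17.1% fell). With hormone in si-CBX3 20 rose and 5 fell (20.4% and 20.5% of all genes). In si-FOXA1 33 rose with hormone and none fell (19.1% and 19.6% of all genes). The difference between the lists was not tested.

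Without siRNA, transcript RPKM values summed per gene gave no common direction after hormone. There was 1 library per time, so no test was made. Of the 48 members, 25 had ratios above and 23 below 0 on the log2(RPKM + 1) scale, with a median of 0.03 against 0.04 for 18455 genes. Among genes at 1 RPKM or more, the median was 0.06 for 47 members and 0.15 for 12388 genes. Past 1.5-fold, 4 were higher (14.7% of genes) and 8 lower (5.39% of genes; 20.1% in either direction). CDC20 was at 21.6 RPKM at 6 h and 10.4 at 0 h, a log2 ratio of 0.98 and the highest of the 48. TOP2A was at 10.5 RPKM at 6 h and 18.8 at 0 h (-0.78), SMC4 at 8.25 and 18.4 (-1.07), and CENPE at 0.681 and 9.51 (-2.64). CDC20 was thus above its 0 h level here too, and TOP2A below. CENPF and MKI67, which fell in si-control, were not lower here by RPKM, with log2 ratios of 0.25 and 0.14. By CPM, CENPF was at -0.38 and MKI67 at 0.16. Sums over transcripts depend on how reads were shared among them: the transcript with the highest RPKM was the same at both times for 30 of the 48, and it was not for CENPE, SMC4 or NUSAP1 (0.85). On the CPM scale 22 were above and 26 below 0 with a median of -0.06, and past 1.5-fold 1 was higher and 9 were lower. On that scale CENPE was at -1.29 and NUSAP1 at -0.46.

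BRG1 peaks near the members were few. At 30 min of hormone 6 of 48 had a peak within 5 kb of the gene start (10.3% of all genes tested), and at 0 h 1 had (1.89%). A share near that of all genes is no result about the members. In hg19 coordinates, a peak at 30 min covered the start of CDK1 (chr10:62537001-62539219, score 73.3), and ECT2 had peaks at chr3:172465662-172469890 (score 57.9), over its start, and chr3:172470063-172474684 (score 90.5), 1591 bases away. The peak of CKS2 lay 18 bases, that of KIF23 301, that of TOP2A 1572 and that of BIRC5 2201 bases from the start. At 0 h the single peak was 3788 bases from the start of SMC4. Scores are the authors' own values for each peak, and each list came from 1 library, so the lists were not compared with each other by a test.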

How the data were processed

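RNA-seq of T47D cells was quantified per gene by the authors. The deposited counts are whole fragments per gene, made with featureCounts 1.4.6-p2 on GENCODE 19, per the file headers. The submitters' processing notes also name Trimmomatic, STAR and hg19, and for ChIP-seq Bowtie 1.0.0 and HOMER. Depth was 50017255 to 74374857 fragments per library. Libraries without siRNA have deposited RPKM values and estimated counts per transcript, made by a quantifier not given in the sources used here. They were summed per gene and compared as log2(RPKM + 1), with CPM as an alternative. BRG1 peak lists hold the authors' score per peak, on a scale that no source used here gives.

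Genes passing filterByExpr (18806 of 57820) were scaled by TMM and tested with edgeR 4.0.16 (R 4.3.3), by quasi-likelihood on 8 group means in 15 comparisons, with 8 residual degrees of freedom and Benjamini-Hochberg adjustment over all genes tested in each comparison. The steps were tested on simulated data. CPM values in the text are scaled by TMM, except those of the siRNA targets. RPKM levels use the gene length given in the count files. Alternatives were DESeq2 1.42.0 as a test and as size factors, no filter, a 1.5-fold minimum, the groups compared alone, a replicate block, each library left out in turn and, chosen after seeing the data, log2 fold changes levelled for exon length. Replicate numbers did not pair samples. The members, lists and tests were chosen with earlier results of these data known. All 48 members could be named, with values in every library for 17 of them set by role, such as CDK1, CCNB1 and CDC20, and for the largest changes in each comparison. From other lists, up to 3 called genes with the lowest p were named.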

Additional observations from a re-analysis of the deposited data

Results flagged for a closer look

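Members whose hormone response differed between an siRNA and si-control, by a test of the difference itself in edgeR, are collected here. In si-FOXA1 29 members responded differently from si-control, all higher, where 28.7% of all genes were called (13.0% higher and 15.7% lower). With single libraries left out the count was 19 to 30. CENPF differed by 1.65, MKI67 by 1.46 and ASPM by 1.09 on the log2 scale, each higher in si-FOXA1. These 3 are among the 6 members with at least 8 kb of exons, a class set after the values were seen. The median difference of that class was 1.14, against 0.39 to 0.52 in the shorter length classes of members. Across all genes of at least 8 kb it was 0.16, and the part of exon length was not tested. For MKI67 the call was lost when any single library was left out. In si-CBX3 7 members responded differently, where 8.99% of all genes were called. With single libraries left out the count was 2 to 9. CDC20 (0.62), KIF20A (0.60) and PTTG1 (0.58) were higher relative to si-control, and CENPE (-2.45) was lower, from 7 and 39 fragments at 6 h. The call of CENPE was lost in 5 of 8 such omissions and that of PTTG1 in 3, while CDC20 and KIF20A were called in each. No part of depth, RNA quality or counting in these differences was tested.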

How the results depend on the processing

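Of 460 calls over the 48 members and 15 comparisons, 455 were kept with DESeq2's size factors, 456 without a filter on low counts, 452 by DESeq2's test, 452 with only the groups compared in the fit (30 new) and 438 with changes levelled for exon length, which also gave 39 new calls. Leaving out single libraries kept 1755 of 1984 calls. The cause of these shifts was not tested. With 2 libraries a group, a left-out library leaves 1 that is assumed to vary like the other groups.

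The hormone count of 8 in si-BRG1 became 14 without the filter, 13 with levelling (3 higher and 10 lower) and 0 with a 1.5-fold minimum by edgeR, the same minimum giving 11 in si-CBX3, 3 in si-FOXA1 and 7 in si-control. That minimum left 24 of 45 for si-BRG1 before hormone, 26 of 40 and 21 of 37 for si-FOXA1 before hormone and at 6 h, and 3 of 7 for the si-CBX3 difference in response. The si-BRG1 difference in response, 0 members, became 7 without the filter and 2 with levelling; in si-CBX3 levelling gave 6 higher and 3 lower. Members with a peak at 0 h numbered 0 within 1 kb or above the median score, and 4 within 20 kb (3.41% of genes).

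With single libraries left out, the hormone counts ranged from 5 to 18 in si-BRG1, 12 to 21 in si-CBX3, 7 to 19 in si-FOXA1 and 14 to 23 in si-control. Before hormone the counts against si-control were 38 to 45 for si-BRG1, 43 for si-CBX3 and 36 to 38 for si-FOXA1, and at 6 h 42 to 46, 45 to 47 and 33 to 36. The differences in response gave 0 to 7, 2 to 9 and 19 to 30. Against si-FOXA1, si-CBX3 gave 44 before hormone and 45 to 46 at 6 h.

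Directions turned for 9 results. With si-BRG1 libraries left out singly, MKI67 under hormone in si-BRG1 ranged from -1.32 (without 6 h replicate 2) to 0.53 (without 6 h replicate 1). With levelling, CENPA in si-FOXA1 before hormone was 0.31, and at 6 h in si-FOXA1 CCNB2 was 0.32, CKS2 0.51, CDCA8 0.026, SPC25 0.54, TPX2 0.26 and UBE2C 0.17. BUB3 in si-CBX3 against si-FOXA1 at 6 h was -0.16.

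Replicate numbers did not pair the samples: the correlation of replicate differences ran from -0.06 to 0.12 over 28 pairs of groups, with 1 over 0.1. With a replicate block the hormone counts were 8, 23, 19 and 22 in si-BRG1, si-CBX3, si-FOXA1 and si-control. The block gave 45, 43 and 40 before hormone and 45, 47 and 38 at 6 h for si-BRG1, si-CBX3 and si-FOXA1 against si-control. It gave 0, 6 and 28 for their differences in response, and 44 and 46 for si-CBX3 against si-FOXA1. The block kept 453 of the 460 calls, with 7 lost and 1 new.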
